A study of Mus musculus with 7 samples.

Results

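The arrays compared here measured gene expression in mouse macrophages that met the bacterial lipopeptide Pam3CSK4 for a second time and in macrophages that met it for the first time. The second Pam3CSK4 array came from bone marrow derived macrophages kept with Pam3CSK4 for 24 h and then given Pam3CSK4 again for 3 h (pretreated cells). The first Pam3CSK4 array came from macrophages kept without ligand for 24 h and then given Pam3CSK4 for 3 h (naive cells). These are 2 of the 7 Affymetrix arrays in hand, chosen by their titles alone, and all 18193 genes with a probe set of their own were compared. Each gene was read from its brightest single-gene probe set over the 7 arrays. The other cultures were naive unstimulated, naive given MDP (muramyl dipeptide, a fragment of bacterial cell wall sensed inside the cell), MDP then MDP, MDP then Pam3CSK4, and Pam3CSK4 then MDP, with the same times. Every label carries the replicate number 2, so each culture stands for itself, and the labels used here name no mouse strain, sex or age. No culture was pretreated and then left without a second ligand. The level that a gene still had from the 24 h with Pam3CSK4 and its answer to the second dose therefore cannot be told apart. The labels print the doses as 1 mg/ml Pam3CSK4 and 10 mg/ml MDP, a unit that nothing else here checks; micrograms may have been meant. The question, as the study's design states it, was which genes that a ligand raises 3-fold over unstimulated cells are more than 2-fold lower in tolerant cells.

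Pam3CSK4 is a synthetic copy of the lipid-modified end of bacterial lipoproteins. It is bound at the cell surface by Tlr2 paired with Tlr1, and the receptor pair signals through the adaptor Myd88, the Irak kinases and Traf6 to NF-kB and the MAP kinases. Macrophages that have met such a ligand are known to answer a later dose with less of many inflammatory cytokines, a state called tolerance, while other genes stay inducible or become more so. Lasting inhibitors of the pathway such as Irak3, interferon signalling started by the first dose, and changes in chromatin are known parts of that state in macrophages.

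Values are log2 signals after RMA, a method that corrects background, scales arrays to one distribution and summarises the probes of a probe set. A difference of 1 is 2-fold. With 1 array per group there is no replicate check and no test, and their number limits how precise any difference below can be. Signals under the array median (5.54 on both arrays) were treated as background. Where 1 of the 2 signals lies there, the difference is taken from the median instead and given as "at least" or "or lower". The second and first Pam3CSK4 arrays correlated at 0.987 over probe sets, against 0.998 between the second Pam3CSK4 array and the array of cells given Pam3CSK4 and then MDP. RNA integrity controls were alike, with actin probe sets at the 3′ and 5′ ends of the message 0.10 and 0.11 apart. Control probe sets for 18S ribosomal RNA had a median signal of 10.92 on the second Pam3CSK4 array and 9.0 on the first, and between 8.57 and 9.29 on the other 5 arrays. The array of Pam3CSK4 then MDP, at 9.05, lacked that excess, and with it in place of the second Pam3CSK4 array 424 genes were 2-fold higher and 411 lower than on the first Pam3CSK4 array.

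All 18 measured genes of macrophage identity lay above the array median on both arrays. The growth factor receptor gene Csf1r had 14.10 in pretreated cells and 14.27 in naive cells, the lysosomal glycoprotein gene Cd68 14.01 and 14.21, lysozyme, Lyz2, 14.87 and 14.82, and the F4/80 antigen gene Adgre1 14.11 and 13.39. Both cultures thus carried the markers their labels call for at high signal. Of the 18 genes 3 were 2-fold higher in pretreated cells and none lower: the apoptotic cell receptor Mertk, the complement receptor subunit Itgam, which is Cd11b, and the Fc receptor Fcgr1, the last chosen after its value was seen (13.51 and 12.16).

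In all, 438 genes were 2-fold or more higher at the second Pam3CSK4 than at the first (2.41% of genes) and 418 at least 2-fold lower (2.3%). At 3-fold the counts were 154 higher (0.846%) and 165 lower (0.907%), at 4-fold 80 and 86, and at 8-fold 28 and 12. The numbers on the 2 sides were thus nearly equal, but the extreme end was longer on the higher side. The median difference over all genes was 0.0091 with a robust SD of 0.21, against 0.11 between the second Pam3CSK4 array and the Pam3CSK4 then MDP array. Neither arm was mainly a matter of dim genes, since 416 and 398 genes were still 2-fold higher and lower when counted from the array median. The balance between the arms depends on the scaling. With the arrays centred on 14 housekeeping genes, which moves every difference up by 0.24, 790 genes were 2-fold higher and 271 lower, so that 74.5% of the calls were on the higher side in place of 51.2%. That setting is called the housekeeping scale below. It lines up the median signals of the 14 genes. Their own median difference was -0.05 and became 0.18 on that scale, which thus overshoots these genes. Centring on their median deviation instead, a setting added after seeing the data, gave 501 genes higher and 362 lower. For genes with more than 1 probe set over the array median, all of those probe sets were past 2-fold for 87 of 172 genes on the higher side and 100 of 212 on the lower side.

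**Figure D1:**
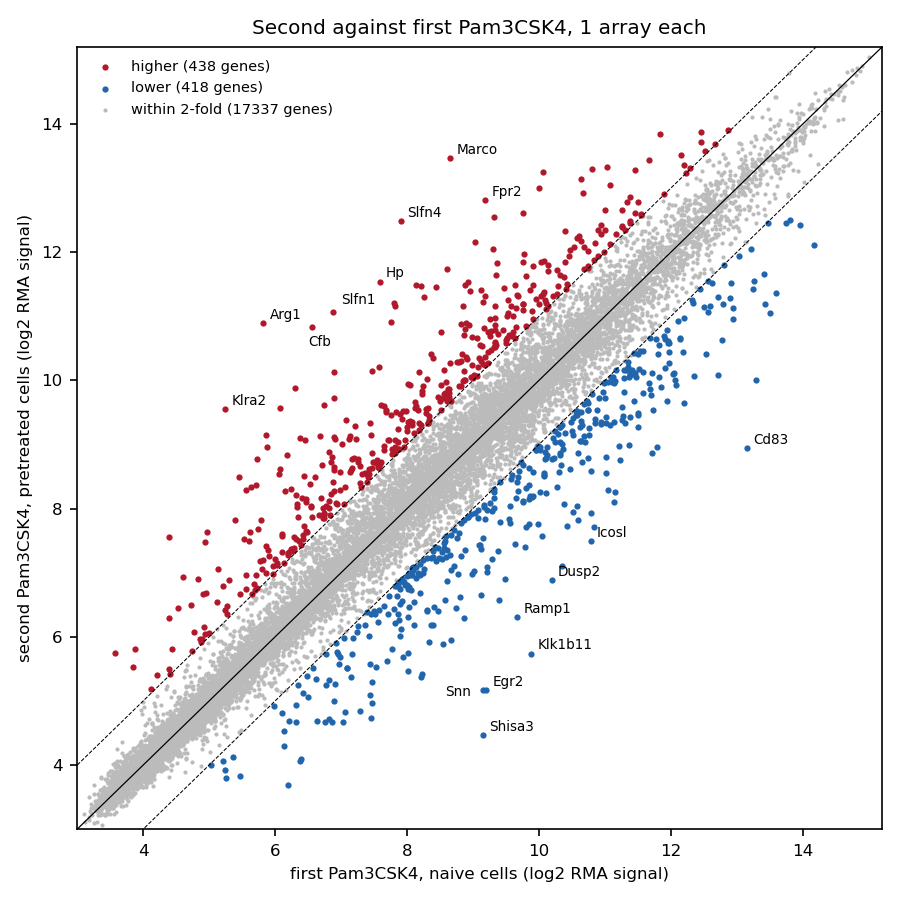
Log2 RMA signal of each of 18193 genes at the second Pam3CSK4 (pretreated cells, vertical axis) against the first (naive cells, horizontal axis), 1 array each, with red for the 438 genes at least 2-fold higher, blue for the 418 at least 2-fold lower and dashed lines at 2-fold. The 8 genes furthest out on each side are named: Arg1 and Marco stand far above the diagonal and Cd83 far below it.

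Furthest on the higher side was Arg1, arginase 1, which splits arginine and is a known product of tolerant and alternatively activated macrophages. Its signal was 10.90 in pretreated cells, against 5.82 in naive cells and 5.67 in unstimulated cells, a difference of 5.08 or 33.8-fold. A first Pam3CSK4 had therefore left Arg1 close to its unstimulated level at 3 h, and the gene was high on the pretreated array alone of these 3. Marco, a scavenger receptor that binds bacteria, had 13.46 in pretreated cells, 8.66 in naive cells and 6.21 in unstimulated cells, and was 28.0-fold higher at the second dose. Cfb, factor B of the alternative complement pathway, had 10.83 in pretreated cells against 6.56 in naive cells and was 19.3-fold higher. Haptoglobin, Hp, which binds free haemoglobin, had 11.54 against 7.59 and was 15.5-fold higher. The formyl peptide receptor gene Fpr2, which guides phagocytes to bacterial peptides, had 12.81 against 9.18 and was 12.4-fold higher. Of these genes Marco and Fpr2 encode surface receptors, Cfb and Hp secreted proteins and Arg1 an enzyme of the cell interior.

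Several others among the 15 highest are interferon-inducible or of the Schlafen family. Slfn4 had 12.48 in pretreated cells and 7.91 in naive cells (4.58), and Slfn1 had 11.06 and 6.87 (4.19, or 2.05 averaged over its probe sets). Ifi213, a member of the interferon-inducible PYHIN family of nucleic acid sensors, had 9.88 and 6.30 (3.59). Isg20, an exonuclease that degrades RNA, had 11.48 and 8.21 (3.26). None of these 4 genes was 3-fold over unstimulated at the first dose. Klra2, of the Ly49 receptor family, had 9.55 and 5.25 and was higher by at least 4.01, the phosphatase gene Ptprm 9.56 and 6.08 (3.48), the protease inhibitor gene Slpi 11.20 and 7.80 (3.40), and the immune receptor gene Sirpb1a 11.16 and 7.82 (3.34). Lox, an enzyme that crosslinks collagen, had 11.49 and 8.13 (3.36, or 2.54 averaged over its probe sets). Fabp7, a fatty acid binding protein gene, was of another kind: it had 9.14 in pretreated cells, 5.86 in naive cells and 8.59 in unstimulated cells. Its difference of 3.28 thus rests on a low level at the first dose rather than on a level beyond that of unstimulated cells.

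Promoter windows were searched for 3 short patterns, on both strands: the core of the interferon-stimulated response element (GAAA and GAAA separated by 2 bases of any kind), a kB motif bound by NF-kB (GGG, any 2 bases, TTTCC), and the AP-1 motif TGANTCA. The windows run from 250 bases before to 50 after a transcription start in RefSeq, build GRCm38.p6, and were at hand for 14452 of the 18193 genes, as 18109 windows. The response element core stood in 3.03% of all windows, in 8.30% of those of the genes higher at the second Pam3CSK4 (38 of 458) and in 1.61% of those of the genes lower (7 of 435). In genes within 1.5-fold of unstimulated at the first dose and higher at the second it stood in 10.9% (21 of 192). For the kB motif the shares were 1.58% of all windows, 2.18% for genes higher and 3.22% for genes lower. For the AP-1 motif they were 6.38%, 8.73% and 9.20%. Some genes have several windows, which can overlap. Among genes induced 3-fold at the first dose, the kB motif stood in 3.73% of windows of those lower at the second (5 of 134, from 3 of 102 genes). In windows of the induced genes not lower it stood in 7.63% (9 of 118, from 7 of 83 genes). The response element core stood in 0.75% and 7.63% of these windows, and the AP-1 motif in 13.4% and 11.0%. A match is a stretch of letters, not a shown binding site. The windows below show the response element core in 3 genes that were higher, and the kB motif in 1 gene that was higher and 1 that was lower at the second dose, with the matches in capitals and the sequence read from 5′ to 3′ on the gene's strand.
Ifi213, chr1:173599223-173599522, minus strand: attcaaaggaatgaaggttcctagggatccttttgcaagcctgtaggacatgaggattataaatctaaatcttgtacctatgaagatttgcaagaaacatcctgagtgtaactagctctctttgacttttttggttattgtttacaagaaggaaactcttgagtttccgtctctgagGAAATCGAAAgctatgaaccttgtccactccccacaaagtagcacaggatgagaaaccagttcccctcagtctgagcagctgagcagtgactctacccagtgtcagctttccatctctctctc
Stat2, chr10:128270248-128270547, plus strand: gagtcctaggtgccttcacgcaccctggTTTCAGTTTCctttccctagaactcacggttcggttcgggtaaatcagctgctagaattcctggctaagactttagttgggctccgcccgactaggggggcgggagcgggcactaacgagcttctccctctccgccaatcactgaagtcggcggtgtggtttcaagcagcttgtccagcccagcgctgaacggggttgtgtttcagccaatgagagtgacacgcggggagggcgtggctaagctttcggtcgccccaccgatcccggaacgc
Bst2, chr8:71537423-71537722, minus strand: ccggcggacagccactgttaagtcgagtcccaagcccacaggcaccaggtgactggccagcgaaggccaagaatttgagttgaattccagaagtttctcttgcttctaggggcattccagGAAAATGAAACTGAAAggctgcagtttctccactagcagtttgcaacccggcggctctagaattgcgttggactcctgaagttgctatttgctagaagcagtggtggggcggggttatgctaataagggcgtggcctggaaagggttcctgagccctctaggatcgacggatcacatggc
Marco, chr1:120504975-120505274, minus strand: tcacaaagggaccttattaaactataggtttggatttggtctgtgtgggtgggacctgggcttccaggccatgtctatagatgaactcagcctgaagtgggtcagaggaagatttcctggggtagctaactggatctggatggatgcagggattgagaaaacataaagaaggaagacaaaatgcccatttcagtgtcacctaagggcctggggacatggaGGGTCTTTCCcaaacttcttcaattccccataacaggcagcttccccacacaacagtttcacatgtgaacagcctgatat
Cxcl1, chr5:90890995-90891294, plus strand: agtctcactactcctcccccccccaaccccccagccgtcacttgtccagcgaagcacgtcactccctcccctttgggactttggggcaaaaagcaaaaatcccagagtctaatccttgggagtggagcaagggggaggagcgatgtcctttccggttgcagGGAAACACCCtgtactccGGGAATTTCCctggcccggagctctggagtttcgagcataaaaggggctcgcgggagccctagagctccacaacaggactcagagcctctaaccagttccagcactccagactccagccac
The match of Ifi213 starts at -73 from the transcription start, that of Stat2, on the opposite strand, at -222, and that of Marco at -30. Bst2 has 2 response element matches that overlap in 1 run, and Cxcl1 has 2 kB matches, 1 on each strand. The kB motif thus stood in the window of Marco, far higher at the second dose, as well as in that of Cxcl1, which was lower.

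**Figure D2:**
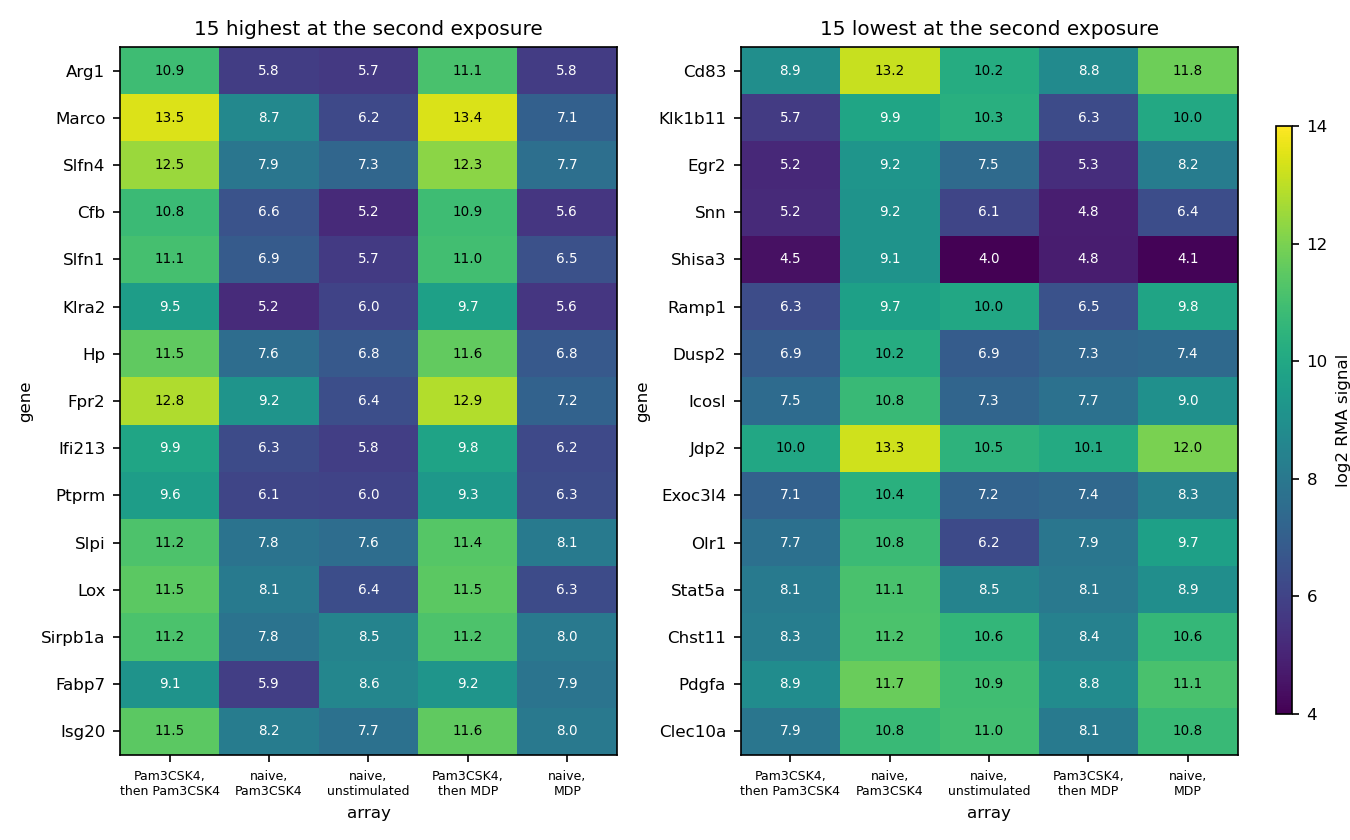
Log2 RMA signal (colour and printed value) of the 15 genes furthest on the higher side (left) and the 15 furthest on the lower side (right) of the second against the first Pam3CSK4, on 5 arrays. In the left panel the pretreated arrays are above all 3 naive arrays in every gene, and in the right panel Klk1b11, Ramp1, Chst11, Pdgfa and Clec10a are high on all 3 naive arrays, whereas genes such as Dusp2 are high on the naive Pam3CSK4 array alone.

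On the lower side Cd83, a surface marker of mature antigen presenting cells, was furthest out, with 8.94 in pretreated cells, 13.16 in naive cells and 10.18 in unstimulated cells, an 18.6-fold difference. The transcription factor gene Egr2 had 5.17, 9.20 and 7.47 on those 3 arrays, a difference of -3.67 or lower. Both were 3-fold over unstimulated cells at the first dose and below unstimulated cells at the second. Dusp2, a nuclear MAP kinase phosphatase, had 6.88 in pretreated cells, 10.19 in naive cells and 6.90 in unstimulated cells (-3.31). Shisa3 had 4.46, 9.15 and 4.03 (-3.61 or lower), and stannin, Snn, 5.17, 9.15 and 6.10 (-3.61 or lower, though -2.02 averaged over its probe sets). For these 3 genes the signal of pretreated cells was near or below that of unstimulated cells. Stat5a, which relays cytokine signals, had 8.10 in pretreated cells and 11.13 in naive cells (-3.04), the oxidized lipoprotein receptor Olr1 7.71 and 10.83 (-3.12), and Exoc3l4 7.11 and 10.35 (-3.25). The costimulatory ligand gene Icosl had 7.49 and 10.78 (-3.29, or -1.75 averaged over its probe sets). Jdp2, a repressor of AP-1, had 10.01 and 13.28 (-3.27), but -1.79 averaged over its probe sets and -0.30 without less specific probe sets, so its call rests on 1 probe set.

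The other 5 of the 15 lowest had little to do with the first response. Klk1b11, a kallikrein protease gene, had 5.74 in pretreated cells against 9.88 in naive cells and 10.30 in unstimulated cells (-4.15). Ramp1, a subunit of the receptor for the neuropeptide CGRP, had 6.31, 9.67 and 10.01 (-3.36, or -1.36 averaged over its probe sets). Clec10a, a galactose-binding lectin of alternatively activated macrophages, had 7.94, 10.80 and 10.96 (-2.86). In these 3 genes the first dose left the signal within 1.5-fold of unstimulated, and the pretreated cells stood well below both naive arrays. Chst11, a chondroitin sulfotransferase gene, had 8.25, 11.15 and 10.62 (-2.90). Pdgfa, a growth factor gene, had 8.86, 11.72 and 10.94 (-2.86).

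Genes were next grouped by their first response. The first response and the second-minus-first difference share the naive Pam3CSK4 array, so an error on that array moves them in opposite directions, and the counts that follow carry that tie. The first dose gave 232 genes a signal 3-fold or more above unstimulated cells (1.28%) and 110 one as far below (0.605%). Of the 232 induced genes, 129 were more than 2-fold lower at the second dose, 86 were within 2-fold and 17 were more than 2-fold higher, beside the 2.3% lower and 2.41% higher over all genes. These 3 fates differed in the level reached. The 129 lower genes had a median of 0.59 over unstimulated cells at the second dose and 2.38 at the first, 21 of them were still 3-fold over unstimulated, and 25 were at or below it. Those within 2-fold had medians of 1.91 at the second dose and 2.10 at the first, and the 17 higher genes 4.80 and 2.23.

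The 17 induced genes that were higher at the second dose were led by Marco, Fpr2, Lox, Lcn2 and Gbp6. Lcn2, which keeps iron from bacteria by binding their siderophores, had 13.26 in pretreated cells, 10.06 in naive cells and 7.83 in unstimulated cells (3.20). Gbp6, a guanylate binding protein of cell-autonomous defence, had 11.48, 8.87 and 6.68 (2.61), and the chemokine gene Ccl5, which attracts T cells and monocytes, 13.91, 12.86 and 7.99 (1.05). Each of these genes was highest in pretreated cells and lowest in unstimulated cells. Among the induced genes within 2-fold were Acod1, which makes the antibacterial metabolite itaconate, with 13.99 in pretreated cells and 13.78 in naive cells against 7.85 in unstimulated cells, and Cxcl10, with 12.68 and 12.63 against 9.78. Il6, with 9.12 and 9.84 against 3.41, was in this class too.

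Of the 110 genes lowered by the first dose, 55 were 2-fold higher at the second and 1, Hmga2, was 2-fold lower. Their median was -1.03 from unstimulated cells at the second dose and -1.95 at the first, and 100 of the 110 were still at or below the unstimulated level, so most of the way back was partial. Cd300lf, an inhibitory receptor of myeloid cells, had 11.74 in pretreated cells, 8.60 in naive cells and 11.34 in unstimulated cells (3.14). Lratd2 had 8.96, 5.87 and 7.95 (3.08). The unnamed transcript C130050O18Rik had 8.34, 5.64 and 8.81 (2.70), and Pag1, an adaptor that holds Src kinases in check, 9.09, 6.38 and 8.72 (2.72, or 1.05 averaged over its probe sets). In each of these 4 the signal of pretreated cells lay near or above that of unstimulated cells. Hmga2, a chromatin protein gene of growing and stem cells, had 7.39 in pretreated cells, 9.78 in naive cells and 11.85 in unstimulated cells, so the signal was lower at each step. Next on the lower side, Tox2 (6.92 and 7.68, though 0.40 higher without less specific probe sets), the oxysterol receptor gene Gpr183 (7.45 and 8.17), Gadd45a (7.88 and 8.49) and Pde3b (7.30 and 7.74) stayed within 2-fold.

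Not all of the difference followed the first response: 182 genes were 2-fold higher and 177 lower at the second dose among the 16341 genes that a first dose left within 1.5-fold of unstimulated. These are 1.11% and 1.08% of that class. Arg1, Ifi213, Ptprm, Slpi and Isg20 were the 5 highest and Klk1b11, Ramp1, Chst11, Clec10a and Ighm the 5 lowest of them.

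Among the receptors for the ligand, Tlr2 itself had 12.88 in pretreated cells, 13.78 in naive cells and 11.20 in unstimulated cells, a difference of -0.90. Tlr1, its partner for triacylated lipopeptides, had 11.11 and 11.55 in pretreated and naive cells, Tlr6, its partner for diacylated ones, 8.38 and 8.78, and Cd14, which hands lipids to the receptor, 13.97 and 14.32. None of the 9 measured genes of the receptor complex was past 2-fold, and the Tlr2 message was still above its unstimulated level. Their median was -0.17, or 0.07 on the housekeeping scale. Myd88 had 11.96 in pretreated cells and 12.04 in naive cells (-0.08, or 0.16 on the housekeeping scale), and 0 of 18 adaptors and kinases of its pathway were past 2-fold, with a median of -0.03 that turned to 0.20 under the same centring. Over all genes 2.41% were 2-fold higher and 2.3% lower, and a count of 0 in lists of these sizes is close to those shares.

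Inhibitors of the pathway went both ways, with 7 of 28 measured genes 2-fold higher and 3 lower. Irak3, a kinase-like protein that blocks the Irak complex, had 11.86 in pretreated cells, 10.08 in naive cells and 8.50 in unstimulated cells (1.78). Usp18, which removes Isg15 from proteins and damps the interferon receptor, had 13.29, 11.46 and 10.81 (1.83). With Cd300lf these were the furthest on the higher side. Socs3, which inhibits cytokine receptors that signal through Stat3, had 11.19 in pretreated cells, 13.43 in naive cells and 6.63 in unstimulated cells (-2.24), and Cish, of the same family, 7.24, 8.58 and 6.92 (-1.34). The ubiquitin-editing enzyme gene Tnfaip3 had 11.80 and 12.81 (-1.01, or -0.77 on the housekeeping scale). Socs3 and Tnfaip3 nevertheless stood above their unstimulated levels at the second dose.

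**Figure D3:**
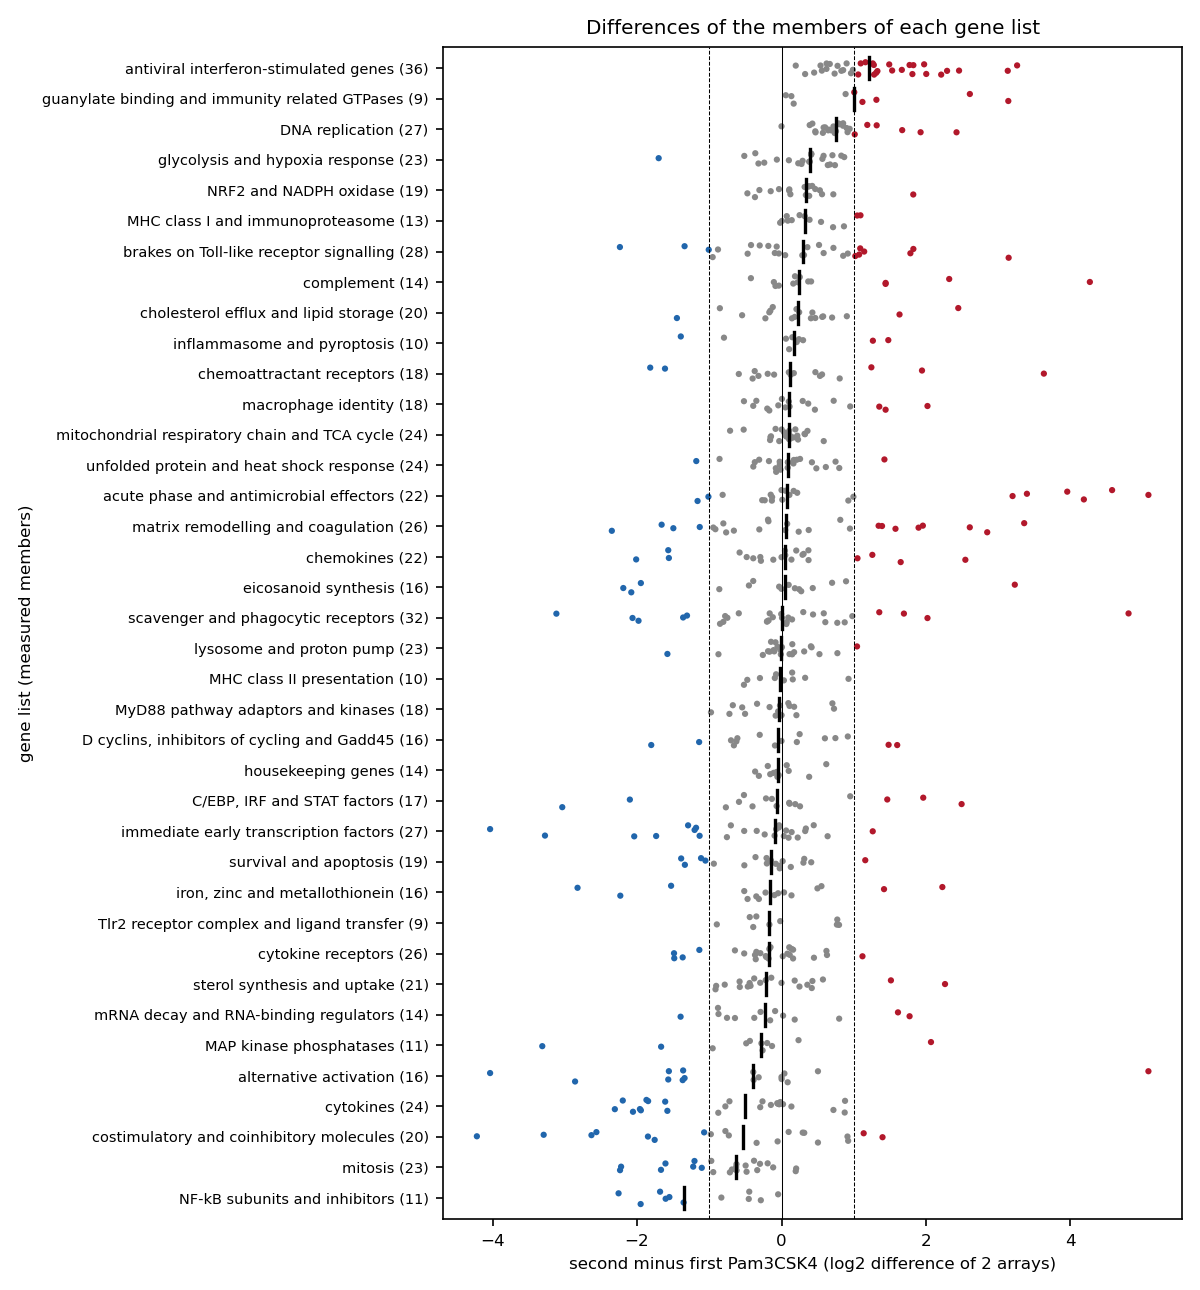
Second minus first Pam3CSK4 (log2 difference of 2 arrays, horizontal axis) of every measured member of 38 gene lists, 1 point per gene, red when at least 2-fold higher, blue when at least 2-fold lower, with a black bar at each list's median. All 36 antiviral genes lie right of 0 and all 11 NF-kB genes left of it. The MyD88 pathway and the respiratory chain stay between the 2-fold lines, as do 17337 of all 18193 genes.

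The genes of NF-kB and its inhibitors were lower as a set: all 11 measured lay below 0, 6 of them 2-fold, with a median of -1.36, against 0.0091 over all genes. Some of these genes are known targets of NF-kB, and 8 of the 11 had been induced 3-fold at the first dose. Of those 8, 5 were 2-fold lower, beside 55.6% of all 232 induced genes, whose median was -1.11. For cells given Pam3CSK4 and then MDP, minus naive cells given MDP, the list's median was -0.07, with 1 gene 2-fold higher and 1 lower. Nfkbie, an inhibitor that holds NF-kB in the cytoplasm, had 9.68 in pretreated cells, 11.93 in naive cells and 9.02 in unstimulated cells (-2.26). Bcl3, an IkB protein that acts in the nucleus, had 9.44, 11.39 and 8.90 (-1.95). Nfkbia, the classical inhibitor IkB alpha, differed little, with 13.90 in pretreated cells and 14.18 in naive cells (-0.29, or -0.76 averaged over its 5 probe sets). In the windows of the 9 genes of this list that had one, the kB motif stood in 38.5% (5 of 13, from 3 of the 9 genes), and the response element core in none.

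Phosphatases that switch off MAP kinases split. Of 11, Dusp2 and Dusp5 were 2-fold lower and Dusp6 was 2-fold higher. Dusp5 had 7.44 in pretreated cells, 9.11 in naive cells and 8.99 in unstimulated cells (-1.67). Dusp6, which acts on Erk, had 10.89, 8.82 and 12.10 (2.07), and was lowest at the first dose. Of 27 immediate early transcription factor genes 8 were 2-fold lower and 1 higher, with a median of -0.10, or 0.14 on the housekeeping scale, where 5 were lower. Klf2, a factor that keeps endothelial and myeloid cells quiescent, was the gene on the higher side, with 9.55 in pretreated cells and 8.29 in naive cells (1.26).

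Among 17 C/EBP, IRF and STAT genes, 3 were 2-fold higher and 2 lower. Irf7, the master regulator of type I interferon genes, had 13.30 in pretreated cells, 10.81 in naive cells and 10.73 in unstimulated cells (2.49). Stat2, a subunit of the factor that binds the response element, had 10.35, 8.39 and 7.56 (1.96). Stat4, chosen after its value was seen, had 8.63 and 7.16 (1.46). Irf4 was lower with Stat5a, at 4.66 in pretreated cells and 6.76 in naive cells (-1.23 or lower).

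Interferon-stimulated genes formed the broadest group on the higher side. All 36 measured antiviral members lay above 0, 21 of them 2-fold and none 2-fold lower, with a median of 1.21. Their median over unstimulated cells was 1.92 at the second dose and 0.70 at the first, and 1 of the 36, Parp14, chosen after its values were seen, had been induced 3-fold by the first. Oasl1, which restrains translation of Irf7 in mice, had 12.16 in pretreated cells, 9.03 in naive cells and 8.07 in unstimulated cells (3.13). Bst2, tetherin, which holds budding viruses on the cell surface, had 13.44, 11.67 and 11.89 (1.77). Ifnb1, the interferon beta gene, was dim on all arrays, at 6.58 in pretreated cells, 5.70 in naive cells and 5.31 in unstimulated cells (0.88). The response element core was found in 11 of the 31 windows of this list (35.5%), which is no independent finding, as such genes are known by that element.

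Of 9 guanylate binding and immunity related GTPase genes 5 were 2-fold higher and none lower, with a median of 1.01. Iigp1, which attacks the vacuoles of intracellular parasites, had 10.90 in pretreated cells, 7.76 in naive cells and 6.94 in unstimulated cells (3.14). Ifi47 lay just past the line at 12.90 and 11.90. In MHC class I presentation 2 of 13 genes were 2-fold higher: Tap1, the peptide transporter (11.21 and 10.11, a difference of 1.09, or 0.35 averaged over its probe sets), and the nonclassical class I gene H2-M3 (11.95 and 10.90). None of 10 MHC class II genes was past 2-fold, close to the 2.41% higher and 2.3% lower over all genes.

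Of 24 measured cytokine genes 9 were 2-fold lower and 0 were higher, and the list's median was -0.51. Of the 24, 11 had been induced 3-fold at the first dose. Of those 11, 7 were 2-fold lower, beside 55.6% of all 232 induced genes. Against another naive array the list read otherwise. In Pam3CSK4 then MDP minus naive cells given MDP its median was 0.64, with 8 genes 2-fold higher and 1 lower. Il1b, interleukin-1 beta, had 12.11 in pretreated cells, 14.17 in naive cells and 6.67 in unstimulated cells (-2.06). Tnf had 11.28, 12.89 and 9.32 (-1.61), and Il10, an anti-inflammatory cytokine, 8.62, 10.47 and 7.40 (-1.85). For these 3 genes the second dose left a signal well over that of unstimulated cells, though below that of the first dose. Hbegf, an EGF receptor ligand, had 6.19 in pretreated cells, 8.39 in naive cells and 7.53 in unstimulated cells (-2.20), and so was also below the unstimulated level. Il12b, a subunit of IL-12 and IL-23, had 4.06 in pretreated cells, below background, and 6.37 in naive cells (-0.84 or lower), so that 8 of the 9 genes are left when counted from the array median. Nos2, inducible nitric oxide synthase, had 6.73 in pretreated cells, 6.86 in naive cells and 5.96 in unstimulated cells and was little induced by either exposure.

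Chemokine genes were mixed, with 4 of 22 2-fold higher, 3 lower and a median of 0.05. Cxcl5 had 7.48 in pretreated cells and 4.94 in naive cells (at least 1.94), Ccl8 12.26 and 10.60 (1.65), and Ccl12, chosen after its value was seen, 13.71 and 12.46 (1.26), with Ccl5 as the fourth. Cxcl1, like Cxcl5 a neutrophil attractant that acts on Cxcr2, went the other way with 9.49 in pretreated cells and 11.51 in naive cells (-2.01). Ccl22, a ligand of the T cell receptor Ccr4, had 6.54 and 8.10 (-1.57), and Ccl24, chosen after its value was seen, 6.46 and 8.02 (-1.56). Neutrophil attractants were thus found on both sides.

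Receptors for attractants followed suit, with 3 of 18 higher and 2 lower. Besides Fpr2 the leukotriene B4 receptor gene Ltb4r1 was higher, with 8.81 in pretreated cells and 6.87 in naive cells (1.95), and S1pr1, chosen after its value was seen, with 9.06 and 7.82. The fatty acid receptor gene Gpr84 was lower, with 11.42 and 13.24 (-1.82), as was the eotaxin receptor gene Ccr3, with 6.26 and 7.87 (-1.61). Of 26 cytokine receptor genes 1 was higher, Il21r (10.00 and 8.88), and 4 were lower. They were Tgfbr1, a TGF-beta receptor (10.65 and 12.13), Il17ra (8.83 and 10.32) and, chosen after their values were seen, the IL-4 and IL-13 receptor chains Il4ra (10.58 and 11.95) and Il13ra1 (7.22 and 8.36).

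Costimulatory and coinhibitory molecules had 7 of 20 members 2-fold lower and 2 higher, with a median of -0.54. In Pam3CSK4 then MDP minus naive cells given MDP, 4 were lower and 5 higher, with a median of 0.18. Cd83 and Icosl, above, were the lowest. Cd274, the PD-L1 ligand that restrains T cells, was on the higher side with 12.08 in pretreated cells, 10.68 in naive cells and 8.59 in unstimulated cells (1.40), and Slamf8, a receptor of the SLAM family, with 10.21, 9.07 and 7.59 (1.14). Of 8 members induced 3-fold at the first dose 6 were 2-fold lower at the second, beside 55.6% of all 232 induced genes. Cd274 was the 1 of the 8 that was higher.

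Genes used as markers of alternative activation did not move as 1 group. Arg1 was the only 1 of 16 measured that was 2-fold higher, and 7 were 2-fold lower, among them Egr2, Clec10a and Ccl22. The list's median was -0.39.

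Antimicrobial and acute phase genes had 6 of 22 members 2-fold higher, all described above (Arg1, Slfn4, Slfn1, Hp, Slpi and Lcn2), and 2 lower near the line: lactoferrin, Ltf (6.41 and 7.57), and Arg2 (6.38 and 7.39), both of which lost the call with 32 added to the linear values. Of 14 complement genes 4 were 2-fold higher and none lower: Cfb, the protease gene C1ra (8.57 and 7.13), Itgam (11.72 and 10.28) and, chosen after its value was seen, the complement regulator Cd55 (6.92 and 4.60, at least 1.38). Scavenger and phagocytic receptors were divided, with 4 of 32 higher and 5 lower. Mertk, which takes up apoptotic cells, had 9.62 in pretreated cells, 7.60 in naive cells and 9.89 in unstimulated cells (2.02), while Clec7a, the beta-glucan receptor Dectin-1, had 10.01, 12.07 and 12.09 (-2.06). Mertk was lower at the first dose than in unstimulated cells and Clec7a was not. The pretreated cells were near unstimulated cells in Mertk and below them in Clec7a.

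In eicosanoid synthesis 1 of 16 genes was higher and 3 lower. Ptgs2, the inducible cyclooxygenase, had 8.59 in pretreated cells, 10.78 in naive cells and 4.50 in unstimulated cells (-2.19). Ltc4s, which makes leukotriene C4, had 7.21, 9.29 and 9.50 (-2.08), and Hpgd, which breaks down prostaglandins and was chosen after its value was seen, 4.69, 6.63 and 7.04 (-1.10 or lower). Pla2g7, which degrades platelet activating factor, had 12.55, 9.32 and 9.61 (3.23). Of 26 genes of matrix remodelling and coagulation 8 were 2-fold higher and 4 lower. Thrombospondin, Thbs1, had 12.61 in pretreated cells, 9.76 in naive cells and 11.05 in unstimulated cells (2.85). The metalloproteinase gene Mmp13 had 11.06, 12.56 and 10.90 (-1.50), and its inhibitor Timp1 9.04, 10.70 and 8.12 (-1.66). Mmp13 was thus close to its unstimulated level at the second dose, and Timp1 lay above its own.

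Genes of energy metabolism were seldom past 2-fold, with counts close to the 2.41% higher and 2.3% lower over all genes. In the respiratory chain and citric acid cycle none of 24 was past 2-fold, with a median of 0.10. In glycolysis and the hypoxia response 1 of 23 was past it, the stress gene Ndrg1 with 10.27 in pretreated cells and 11.97 in naive cells (-1.70). Of the 23, however, 17 lay above 0, and the median was 0.39, against 0.0091 over all genes. Scd1, a fatty acid desaturase that makes oleate, had 9.12, 6.68 and 6.47 in pretreated, naive and unstimulated cells (2.45), and its relative Scd2 12.92, 10.66 and 11.89 (2.26). In sterol synthesis Dhcr7, which makes the last step to cholesterol, was the other gene of 21 past 2-fold (8.77 and 7.26), with none lower. Of 20 genes of cholesterol efflux and lipid storage, Scd1 and Mylip, an enzyme that degrades the LDL receptor (10.97 and 9.33), were higher and Ch25h, which makes 25-hydroxycholesterol (8.87 and 10.31), lower.

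In the handling of iron, zinc and other metals 2 genes were higher and 3 lower. Ceruloplasmin, Cp, a ferroxidase that loads iron onto transferrin, had 10.75 in pretreated cells, 8.52 in naive cells and 6.72 in unstimulated cells (2.23, or 1.45 averaged over its probe sets). Haem oxygenase, Hmox1, had 13.88, 12.46 and 12.72 (1.42). The zinc importer gene Slc39a14 had 8.97 in pretreated cells, 11.79 in naive cells and 9.71 in unstimulated cells (-2.82, or -1.71 averaged over its probe sets). Metallothionein 2, Mt2, had 11.37, 13.60 and 12.02 (-2.23), and its neighbour in function Mt1, chosen after its value was seen, 12.43, 13.96 and 13.71 (-1.53, or -0.76 averaged over its probe sets). These 5 were the genes past 2-fold among 16 measured, and the other 11 lay within it; the list's median was -0.16, or 0.08 on the housekeeping scale. Gclm, which makes glutathione, was the 1 of 19 Nrf2 and NADPH oxidase genes past 2-fold (11.16 and 9.34, a difference of 1.82). In the unfolded protein and heat shock response Ddit3, known as Chop, was higher (11.19 and 9.76, or 0.80 averaged over its probe sets) and Hspa1b, an inducible Hsp70, lower (9.96 and 11.14, or -0.94 on the housekeeping scale), among 24 genes. Of 23 lysosomal genes the proton pump subunit Atp6v0d2 was lower (9.05 and 10.63) and the sialidase Neu1 higher (10.85 and 9.80, or 0.51 averaged over its probe sets). A single gene past 2-fold in a list of this size, as in the Nrf2, heat shock and lysosome lists, is close to the 2.41% higher and 2.3% lower over all genes.

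The cell cycle genes separated by phase. Of 27 measured DNA replication genes 26 lay above 0 and Tyms, below background on both arrays, at 0, 6 were 2-fold higher, and the median was 0.75 (13 were 2-fold higher on the housekeeping scale). Against unstimulated cells their median was 0.07 at the second dose and -0.66 at the first, so a first dose went with a lower signal that was not seen in pretreated cells. Cyclin E2, Ccne2, which starts DNA replication, had 7.82 in pretreated cells, 5.40 in naive cells and 7.17 in unstimulated cells (at least 2.28), and Rrm2, a subunit of the enzyme that makes deoxynucleotides, 9.92, 8.25 and 9.24 (1.67). Of 23 mitosis genes 21 lay below 0, 7 were 2-fold lower and none higher, and the median was -0.63 (4 were 2-fold lower on the housekeeping scale). Against unstimulated cells that median was -0.91 at the second dose and -0.28 at the first. Cyclin B2, Ccnb2, which drives entry into mitosis, had 7.77 in pretreated cells, 9.99 in naive cells and 10.34 in unstimulated cells (-2.22). Cenpa, the histone of the centromere, had 8.98, 11.21 and 12.11 (-2.24), but -0.85 averaged over its probe sets and -0.22 without less specific ones. For Pam3CSK4 then MDP minus naive cells given MDP, the replication list's median was 0.35, with 1 gene 2-fold higher and none lower. The mitosis list's median was -0.87 there, with 10 genes lower and none higher. In bulk cultures such as these, fewer cells in a phase and less RNA per cell cannot be told apart.

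**Figure D4:**
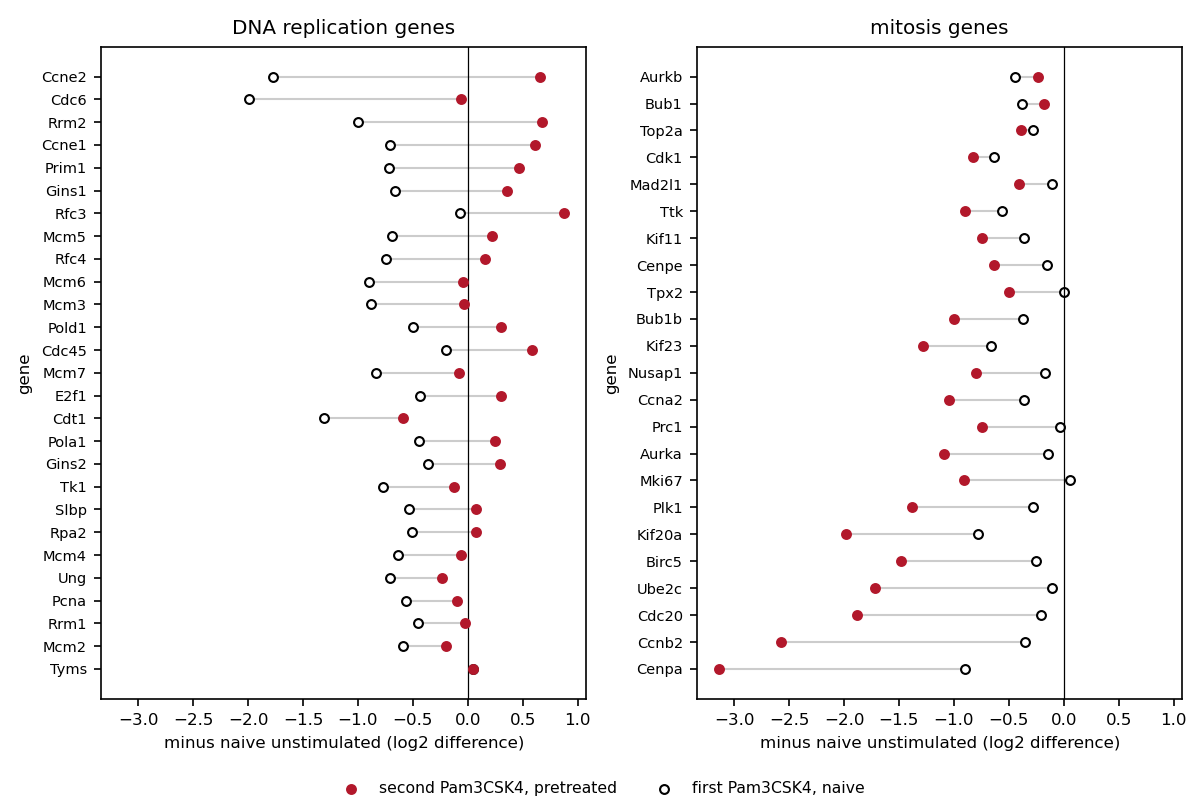
Log2 difference from naive unstimulated cells of each DNA replication gene (left) and each mitosis gene (right) at the second Pam3CSK4 (filled red, pretreated cells) and the first (open, naive cells), 1 array each. The filled points of the left panel lie near 0 and right of the open ones, whereas in the right panel they lie left of 0 and, for 21 of 23 genes, left of the open ones.

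Among the D cyclins, cycle inhibitors and Gadd45 genes 2 of 16 were higher and 2 lower. Gadd45g had 9.83 in pretreated cells and 8.23 in naive cells (1.60), and Gadd45b, of the same family of stress sensors, went the other way with 11.13 and 12.94 (-1.80). Cyclin D3, Ccnd3, had 11.00 and 9.52 (1.48, or 0.53 averaged over its probe sets), and cyclin D2, Ccnd2, 10.20 and 11.34 (-1.14, or -0.90 on the housekeeping scale). In survival and apoptosis 4 of 19 genes were lower: Bcl2l11, the death protein Bim (10.58 and 11.97, a difference of -1.39), the kinase Pim1 (10.18 and 11.52, a difference of -1.34) and, chosen after their values were seen, the death receptor Fas (8.26 and 9.31) and the adaptor Traf1 (9.45 and 10.57). Bcl2 was higher (7.64 and 6.48), but short of 2-fold averaged over its probe sets (0.50). In the inflammasome list Nlrp3, a sensor of cell damage, was lower (10.41 and 11.80, a difference of -1.39), and Naip5 (9.61 and 8.13) and Naip2 (10.60 and 9.34), sensors of bacterial flagellin and secretion systems, were higher, among 10 genes. Among 14 genes of mRNA decay Zfp36, tristetraprolin, which marks cytokine messages for decay, was lower (11.52 and 12.92, a difference of -1.40), and Tob1 (10.26 and 8.65) and, chosen after its value was seen, Mex3b (6.50 and 4.73, at least 0.96) were higher.

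Markers of other cells were taken list by list. For neutrophils 8 of 10 lay above the array median on at least 1 of the arrays and 7 of 10 above 0 in the difference, with a median of 0.22. In that list 1 of 10 measured markers was 2-fold higher, the calgranulin gene S100a8 (12.13 in pretreated cells and 11.08 in naive cells), and 1 lower, Ltf, and the summed level of the list was 13.50 and 12.93. The granule enzyme gene Mpo and the chemokine receptor gene Cxcr2 lay under the array median on both. Of the dendritic cell markers Bst2, itself an interferon-stimulated gene, was higher, 5 of 9 were below the median on both arrays, Xcr1 and Siglech among them, and the summed level was 13.52 in pretreated cells and 11.89 in naive cells. No T and NK cell marker of 10 was past 2-fold (summed level 9.18 and 9.16), nor any mast or erythroid marker of 8 (8.81 and 8.80). The B cell gene Ighm, the immunoglobulin mu chain, had 7.73 in pretreated cells and 10.42 in naive cells (-2.69), but -0.50 averaged over its 11 probe sets and -0.01 without less specific ones, while Cd79a, Ms4a1, Blk and Vpreb1 were below the median on both arrays. The summed level of the 7 B cell markers was 9.40 and 10.75. Of the stromal markers Dcn, decorin, was higher (8.03 and 6.55, or 0.75 averaged over its probe sets), and 7 of 10 were below the median on both, Col1a1 and Pdgfrb among them, with a summed level of 10.04 and 9.73. The part of these markers in the differences of the other genes was not tested.

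The same pretreatment can be read on a second pair of arrays that shares none with the first: Pam3CSK4 then MDP, minus naive cells given MDP. That pair had 390 genes 2-fold higher (2.14%) and 311 lower (1.71%). Of the 438 genes higher at the second Pam3CSK4, 237 (54.1%) were also 2-fold higher on the MDP pair and 1 was lower, the G protein regulator Rgs2, chosen after its values were seen. Of the 418 lower, 183 (43.8%) were also lower and 17 were higher. Over all genes the differences of the 2 pairs had a Pearson r of 0.67, as a description, since genes are not independent replicates. On the higher side Arg1 was at 5.08 at the second Pam3CSK4 and 5.34 on the MDP pair, Marco at 4.81 and 6.38, Cfb at 4.27 and 5.33, Irf7 at 2.49 and 2.56, and Pla2g7 at 3.23 and 3.05. On the lower side Cd83 was at -4.22 and -2.99, Klk1b11 at -4.15 and -3.77, Clec7a at -2.06 and -2.19, and Ltc4s at -2.08 and -1.94. Arg1, Irf7, Clec7a and Ltc4s thus gave like values on both pairs, and Marco and Cd83 less so.

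**Figure D5:**
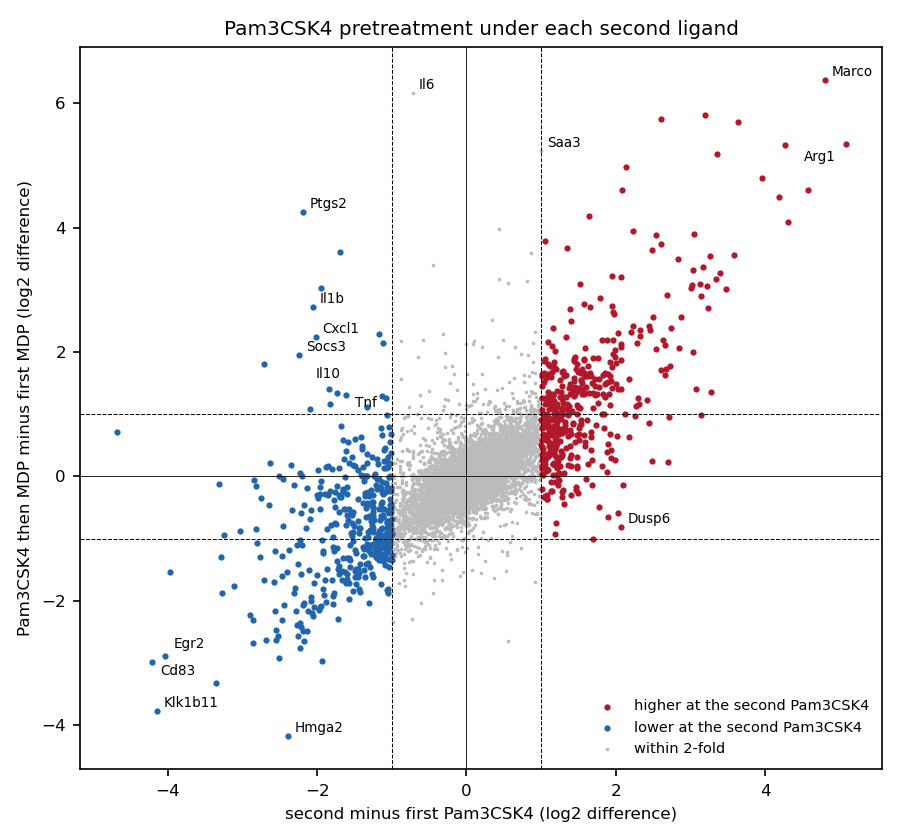
Log2 difference of each gene after Pam3CSK4 pretreatment under a second Pam3CSK4 (horizontal axis, second minus first Pam3CSK4) and under MDP (vertical axis, Pam3CSK4 then MDP minus first MDP), 1 array each and none shared, with dashed lines at 2-fold. Marco and Arg1 are high on both axes and Cd83, Egr2 and Klk1b11 low on both, while Ptgs2, Il1b, Cxcl1, Socs3, Tnf and Il10 are low on the horizontal and high on the vertical axis.

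Some genes, inflammatory ones among them, were past 2-fold with opposite signs on the 2 pairs, 17 lower at the second Pam3CSK4 but higher on the MDP pair. Il1b had 12.11 at the second Pam3CSK4 and 14.17 at the first, but 12.45 after Pam3CSK4 then MDP and 9.73 at the first MDP. Ptgs2 had 8.59 and 10.78 on the first pair and 9.19 and 4.94 on the other. In these genes the 2 pretreated arrays were closer to each other than the 2 naive arrays were. The second Pam3CSK4 array was the lower of the pretreated 2 in each, with a difference of -0.34 in Il1b and -0.60 in Ptgs2. The robust SD between those 2 arrays over all genes was 0.11. Over all genes the second Pam3CSK4 array had 0 genes (0%) 2-fold higher than the Pam3CSK4 then MDP array and 1 gene (0.0055%) 2-fold lower, Il6 with 9.12 and 10.18. Il6 was thus the only gene past 2-fold between the 2 pretreated arrays. With 1 array each, an effect of the second ligand cannot be told from a difference between arrays, and it was not tested.

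Pretreatment with MDP in place of Pam3CSK4 uses the same naive Pam3CSK4 array, so its values are set beside those above with no measure of likeness. Of the 129 induced genes lower at the second Pam3CSK4, 1 was 2-fold lower after MDP then Pam3CSK4 (the adhesion molecule Selp, chosen after its values were seen). The median difference of the 129 from the naive Pam3CSK4 array was 0.12. The share of all genes 2-fold lower between these arrays was not counted, so the count alone is no result about the 129. Cd83 had 13.04 after MDP then Pam3CSK4, Dusp2 10.35, Il1b 14.19 and Tnf 12.92, all close to the naive cells given Pam3CSK4. Some antiviral and Schlafen genes lay between, with Isg20 at 10.05, Oasl1 at 10.72 and Slfn4 at 10.04 after MDP then Pam3CSK4. Arg1, at 5.83, was close to its level in naive cells.

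The 2-fold line is no natural border. Just inside it on the higher side were Tifab (1.00), Sash3 (1.00), Ifi47 (1.01) and the cystatin gene Cst7 (1.01), and just outside Cep83, the acute phase gene Saa3, Ppp1r13b and Aftph, all between 0.99 and 1.00. Just inside on the lower side were Wdr43, Far1, Ubxn2a and Tnfaip3, the last at -1.01, and just outside Spire1, the cell cycle kinase gene Cdk6, Emp2 and Ralgds, the last at -0.99. Saa3 shows what the line leaves out: it had 14.79 in pretreated cells and 13.80 in naive cells against 6.78 in unstimulated cells, among the brightest signals on both arrays.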

How the data were processed

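Gene expression was measured on 7 Affymetrix arrays, 1 per culture. The deposited values are log2 signals that the authors made, per the submitters' processing notes, with RMA and the affy package, whose versions are not given in the sources used here. Probe sets numbered 45101, from 2.95 to 15.1; 64 controls were set aside, 34945 carried 1 gene symbol, 932 several and 9160 none. Each of 18193 genes was read from its brightest single-symbol probe set, by the mean of the 7 arrays. Differences between 2 arrays were taken with no test, and genes past 2-fold were counted (3-fold against unstimulated cells). On simulated arrays, 49 of 50 genes changed 2.5-fold, 0 of 50 changed 1.5-fold and 1 of 17993 unchanged genes passed 2-fold. The simulated noise was the shuffled differences between the second Pam3CSK4 array and the Pam3CSK4 then MDP array, the most alike pair. That pair itself had 1 gene past 2-fold, so the simulation gives no rate of false calls for the arrays compared here. Python 3.11.15, numpy 2.4.6, pandas 2.3.3, matplotlib 3.10.9, R 4.3.3 and limma 3.58.1 (cyclic loess, span 0.7, 3 iterations) were used.

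The members and the 44 gene lists (748 distinct genes, 82 not measured, 6 under a newer symbol) were chosen with earlier results of these data known. Named genes are the 15 highest and 15 lowest, up to 2 per list and direction past 2-fold, 5 per end of each first-response class, a fixed set of known genes, and those nearest the 2-fold line; others are marked as chosen after their values were seen. Alternatives changed array scaling, probe set choice, low-value filters, an added constant of 32 and the fold threshold. Another 3 were chosen after seeing the data: the Pam3CSK4 then MDP array in place of the second Pam3CSK4 array, values below the array median set to it, and centring on the housekeeping genes' median deviation. Promoter sequences are from RefSeq, build GRCm38.p6.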

Additional observations from a re-analysis of the deposited data

Results flagged for a closer look

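For 7 named genes the difference after Pam3CSK4 pretreatment went one way under a second Pam3CSK4 and the other way under MDP. The values are log2 differences from naive cells given the same ligand, and the differences between the 2 ligands were not tested, since each rests on 1 array per culture. The kinase gene Pim1 was at -1.34 under Pam3CSK4 and 1.11 under MDP, Tnf at -1.61 and 1.31, and Il10 at -1.85 and 1.41. The cytokine signalling inhibitor gene Socs3 was at -2.24 and 1.95, and the chemokine gene Cxcl1 at -2.01 and 2.24. Furthest apart were Il1b, at -2.06 and 2.72, and the cyclooxygenase gene Ptgs2, at -2.19 and 4.25. In all 7 genes a first Pam3CSK4 gave a higher signal than a first MDP. That follows from choosing genes by these opposite signs, since none of the 7 was past 2-fold between the 2 pretreated arrays.

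The 18S ribosomal RNA control probe sets, which no gene comparison uses, were 1.92 higher at the second Pam3CSK4 than at the first. Their part in the gene differences was not tested, and the counts with the Pam3CSK4 then MDP array in place of the second Pam3CSK4 array stand in the results.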

How the results depend on the processing

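Named genes and lists were not run under the filters at the array median and 75th percentile, the 3-fold threshold or the exchanged array. Under the remaining alternatives no named gene past 2-fold changed sign. Of those within 2-fold, Myd88 (0.16) and Nos2 (0.10) did with the arrays centred on 14 housekeeping genes, and Tox2 (0.40) without less specific probe sets. The slight excess of higher over lower genes turned under cyclic loess (429 and 436), with averaged probe sets (329 and 330) and at 3-fold. Centring on the housekeeping genes moved 6 of 9 gene counts: 790 genes were higher and 271 lower at the second Pam3CSK4, 28 induced genes were higher, 72 genes were lowered by the first dose, and 429 of the higher and 95 of the lower genes were so on the MDP pair as well. By construction it shifts every difference by 0.24; centring on the same genes' median deviation, added after seeing the data, gave 501 and 362. With 3-fold in place of 2-fold, which moved 7 of 9, there were 154 higher and 165 lower genes, 83 induced genes lower and 10 higher, 28 lowered genes higher, and 87 and 58 genes shared with the MDP pair; a stricter threshold gives fewer by construction. Genes lowered by the first dose numbered 73 when probe sets of a gene were averaged and 68 with a filter at the 75th percentile, where fewer genes count. The other alternatives left between 329 and 443 genes higher and between 323 and 436 lower. Of 126 named genes past 2-fold, 105 stayed past it under every alternative run for named genes, and 21 did not under at least 1. The median of 21 of 44 lists changed sign under at least 1 of the same alternatives. The cause was not tested. No paired analysis was possible because every label carries the same replicate number and each group has 1 array. Signal over background limits the dim genes: on both arrays 6254 of 18193 lay under the median.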
